A study of Mus musculus with 3 samples.

Results

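Cholesterol is made from acetyl-CoA through mevalonate, squalene and lanosterol by a series of enzymes whose genes are switched on together by SREBP-2, a transcription factor that is held in the endoplasmic reticulum when membrane sterol is plentiful. SCAP escorts the SREBP proteins to the Golgi for cleavage, and the INSIG proteins retain them. In the opposite direction, oxysterols activate the LXR receptors, which induce genes for sterol export. In vessel walls the balance of synthesis and export is best known from lipid-laden macrophages and from endothelial cells that take up lipoproteins.

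The 31 genes described here cover this system: 18 enzymes of the synthesis pathway, 5 regulators, 4 LXR and efflux genes and 4 genes of sterol transport and storage. They were taken as every probe whose RefSeq accession belongs to a listed gene, and all 31 were found among 20882 named genes on the array, through 42 probes (20 genes with 1 probe and 11 with 2). For the comparison of SREBP targets with efflux genes, 20 genes were taken as SREBP targets (the 18 enzymes with Insig1 and Stard4) and Nr1h3, Abca1, Abcg1 and Mylip as the LXR and efflux genes.

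The RNA came from C57BL/6 mice, from primary cells that the labels call endothelial and that were taken from the corpus cavernosum (erectile tissue), grown in serum with added vascular endothelial growth factor A. The cells spent 48 h in normal glucose (5 mmol, as labelled), in high glucose (30 mmol) or in high glucose with DKK2, a secreted modulator of Wnt signalling at a dose that the labels do not state. Each condition was a pool of 3 samples on 1 single-colour array, so the data hold no replicate check, no p-value and no spread between cultures. The 3 arrays shared a slide, and a condition's effect and that of its position there cannot be told apart. The errors given are technical SDs from the scanner's error model.

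Signals are given as a percentage of the 75th percentile of all probes on the same array, below called the scaled signal, a percentile that stood at 1201.1 intensity units for normal glucose, at 2380.1 for high glucose and at 2416.9 for DKK2. A gene was read on its brightest probe, which for all 31 genes was well above background on all 3 arrays. Scaled signals of different genes come from different probes and are not comparable with each other. Differences are log2 differences of the scaled signal, and "higher" or "lower" in a count means at least 2-fold. Signals of single genes without a percent sign are unscaled intensities. The endothelial marker Pecam1 had unscaled signals of 134.6, 368.7 and 434.6 in normal glucose, high glucose and DKK2. Cdh5, another, had 194.5, 567.6 and 311.3 in the same order, and all were well above background. Against normal glucose the scaled log2 differences were 0.47 (Pecam1) and 0.56 (Cdh5) in high glucose, and 0.68 and -0.33 with DKK2. Erg was not well above background in normal glucose and with DKK2, nor Emcn in normal glucose.

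With DKK2 in high glucose, genes from each stretch of the synthesis pathway were higher, though not all of them. Of the 20 SREBP targets, 11 were higher than in high glucose alone and 0 lower, and all 20 lay above 0, with a median difference of 1.097. For comparison, 17821 genes could be measured in this pair: 5.08% of them were higher, 4.85% were lower, 57.6% lay above 0 and the median was 0.08. On the 3 arrays, 19 of the 20 targets had their highest scaled signal with DKK2, and the exception was Dhcr7. Over all 31 genes 12 were higher and 0 lower.

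**Figure D1:**
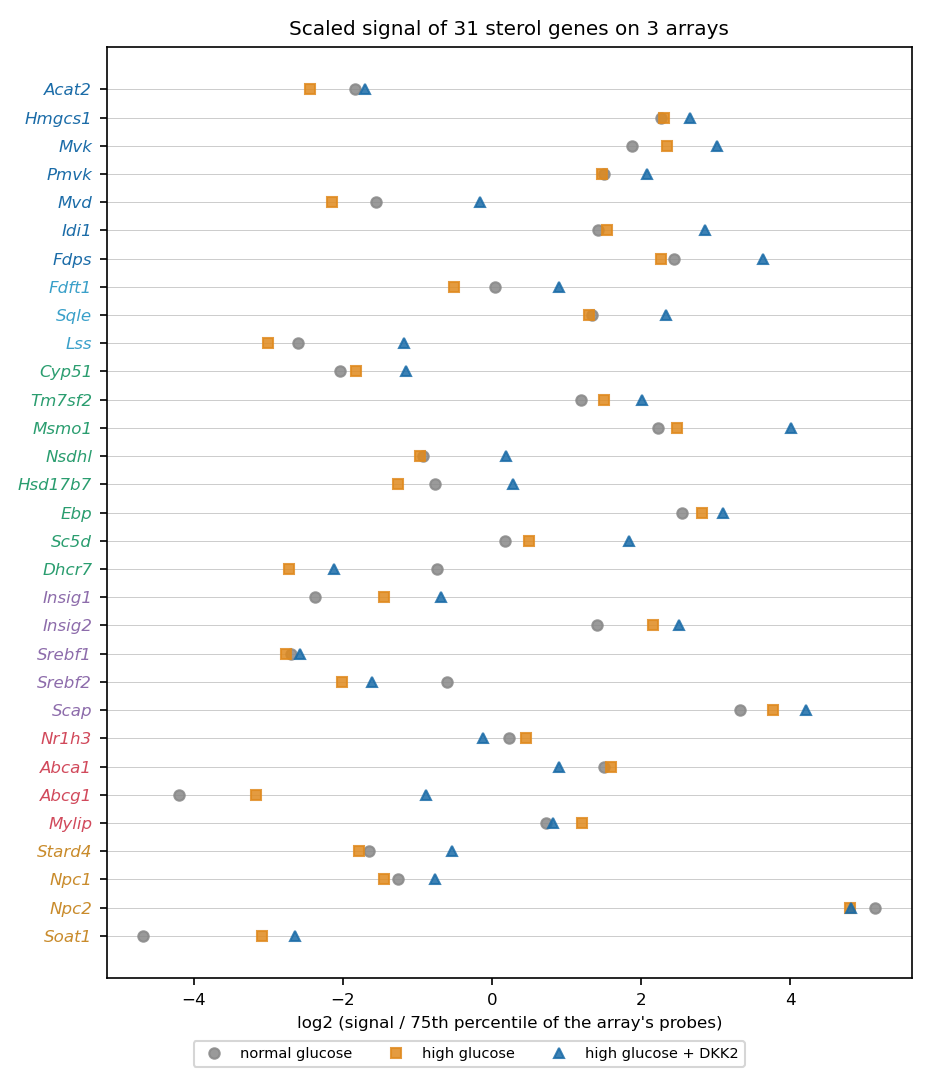
Scaled signal of the 31 genes on each of the 3 arrays, as log2 of the signal over the 75th percentile of the array's probes, with gene names coloured by role (from the top: mevalonate arm, squalene to lanosterol, lanosterol to cholesterol, regulators, LXR and efflux, transport and storage). Levels are comparable within a row only. The DKK2 triangle is the rightmost point for 25 of the 31 genes, and the high glucose square is the rightmost for Nr1h3, Abca1 and Mylip.

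In the mevalonate arm, which leads from acetyl-CoA to farnesyl diphosphate, 3 of 7 genes were higher with DKK2 and all 7 lay above 0 (0.36 to 1.98). Mvd, the mevalonate diphosphate decarboxylase gene, had a scaled signal of 34.0% (normal glucose), 22.7% (high glucose) and 89.7% (DKK2). DKK2 stood well above both other arrays, 3.95-fold above high glucose (log2 difference 1.98, technical SD 0.20), the 112th highest difference of 17821 genes. Fdps, which makes farnesyl diphosphate, read 545%, 482% and 1243% in the same order and differed by 1.37. Idi1, the isopentenyl diphosphate isomerase gene, read 267%, 292% and 721%, a difference of 1.31. For both, the normal and high glucose arrays were close together and the DKK2 array stood apart.

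The other 4 genes of this arm did not reach 2-fold. Acat2, the cytosolic thiolase gene that opens the pathway, was at 28.0%, 18.5% and 30.8%, lowest in high glucose, a difference of 0.74 with DKK2 and of 0.14 between DKK2 and normal glucose. Mice carry a close paralog of Acat2, Acat3, and cross-hybridisation of the probe was not tested. Mvk, the mevalonate kinase gene, was at 0.66 and Pmvk, the phosphomevalonate kinase gene, at 0.60. Hmgcs1, the HMG-CoA synthase gene and a widely used SREBP-2 target, had the smallest difference of the arm: it read 482%, 493% and 632% and differed by 0.36 (SD 0.20).

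The 3 genes from farnesyl diphosphate to lanosterol were all higher with DKK2. Lss, the lanosterol synthase gene that closes the sterol rings, read 16.6%, 12.4% and 44.0%, a 3.53-fold difference from high glucose (1.82, SD 0.20). Fdft1, the squalene synthase gene, read 102%, 70.2% and 187% and differed by 1.41, but its other, much dimmer probe differed by 0.26, and the mean of both was 0.84. Sqle, the squalene epoxidase gene, read 253%, 245% and 503% and stood at 1.04. That value is close to the 2-fold line and was 0.96 with quantile normalization and 0.998 with median scaling.

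Among the 8 enzymes from lanosterol to cholesterol 4 were higher and all 8 lay above 0. Hsd17b7 and Msmo1, which act in the removal of the C4 methyl groups, had the largest differences. Hsd17b7 read 59.1%, 41.9% and 121% (1.53, SD 0.20) and its other probe gave 1.59. Msmo1, the sterol-C4-methyl oxidase gene, read 466%, 558% and 1605% (1.52, SD 0.20). Nsdhl, which acts in the same demethylation, read 52.7%, 51.0% and 114% (1.16) with 1.44 on its other probe.

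Sc5d, the lathosterol oxidase gene, was the fourth, at 113%, 141% and 357% (1.34). Cyp51, the lanosterol demethylase gene, was at 0.67, Dhcr7, which carries out the final reduction to cholesterol, at 0.60, Tm7sf2, a sterol-C14 reductase gene, at 0.50 and Ebp, the sterol isomerase gene, at 0.28. The size of the difference thus varied along the pathway, from 0.28 to 1.98 over the 18 enzymes, with 10 of the 18 higher.

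**Figure D2:**
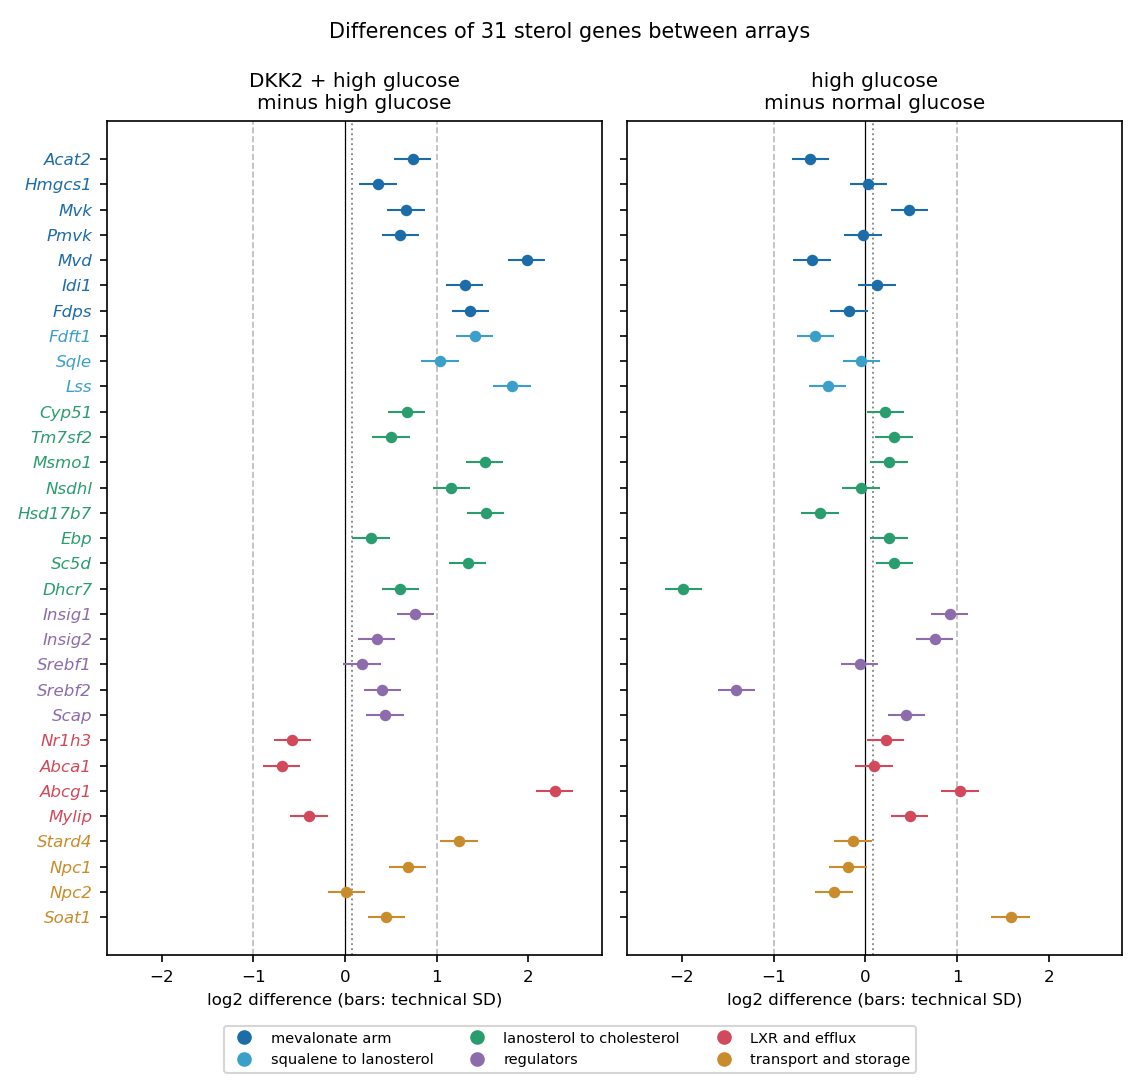
Log2 differences of the 31 genes between DKK2 in high glucose and high glucose alone (left) and between high and normal glucose (right), with technical SD as bars, dashed lines at 2-fold and a dotted line at the median of all genes. On the left all 18 enzymes lie right of 0 and 10 of them beyond 2-fold, and on the right the enzymes lie around 0 with Dhcr7 at -1.99.

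The genes were listed by name and not by a search of their promoters. The SREBP targets are a class known beforehand, and the motifs were chosen with that class in mind. Matches in it are therefore no independent evidence. RefSeq promoters (GRCm38.p6) were held for 25 of the 31 genes, 16 of them SREBP targets, and the 250 bases before each start were searched on both strands, counting a gene where any of its starts had a match. The NF-Y box CCAAT, bound by a factor known to act beside SREBP, was found in 15 of the 16 SREBP targets, against 39.5% of the 14083 measured genes with a promoter. The GC box GGGCGG, an Sp1 site, was also found in 15 of the 16, against 53.7%. Both were present in 14 of the 16, against 21.7%, and of the measured genes with a GC box 40.4% had the NF-Y box too. Neither box was particular to the targets. Of the 6 listed genes with a promoter outside both classes, 5 had the NF-Y box and 5 the GC box. Of the 3 LXR and efflux genes 1 had the NF-Y box and 2 the GC box. The sterol response element written as TCACNCCAC was found in 1 of the 16, Hmgcs1, against 1.26%, and its core CACCCCAC, which overlaps it, in 2 of the 16, against 3.37%. The E-box CACGTG was found in 4 of the 16, against 8.63%. These are matches of letters, not measured binding.

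**Figure D3:**
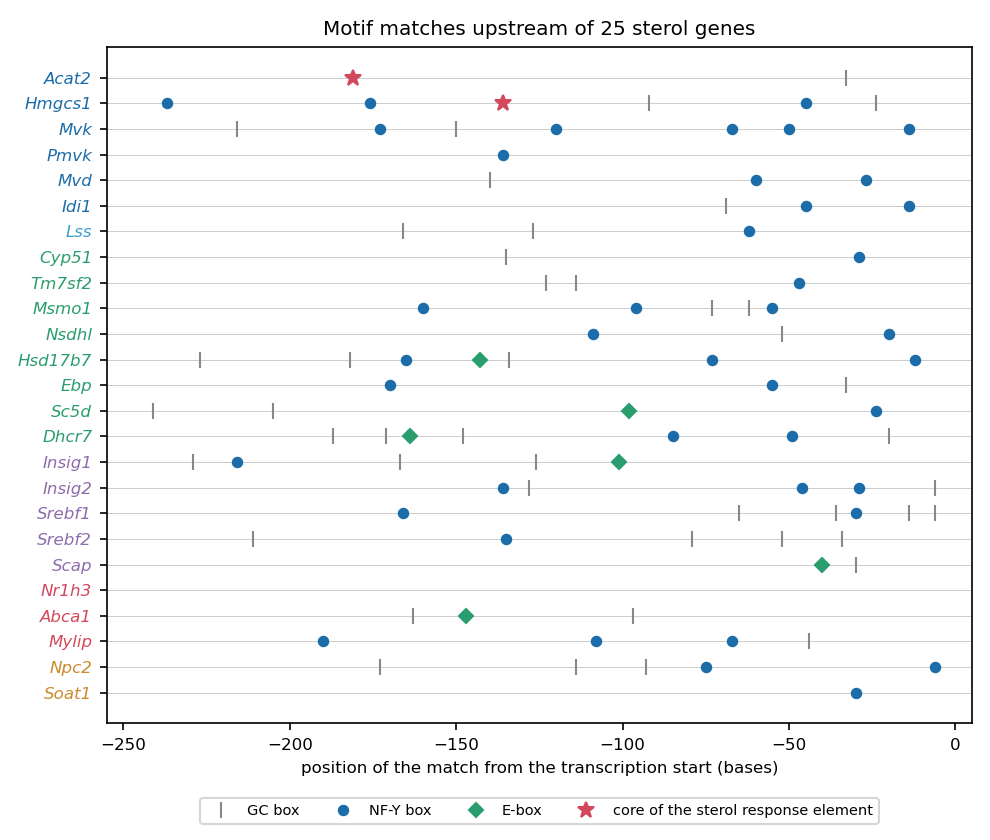
Position of motif matches in the 250 bases before the transcription start of the 25 genes with a RefSeq promoter, in bases from the start, with all starts of a gene on its row. NF-Y boxes stand in 15 of the 16 SREBP targets, Acat2 being the one without. They also stand in 5 of the 6 genes that are neither SREBP targets nor LXR and efflux genes. The core of the sterol response element stands in Acat2 and Hmgcs1.

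The following stretches of 110 bases, 5′ to 3′ on the gene's strand, are those of the 4 SREBP targets with a held promoter and the largest differences with DKK2. Each stretch was picked from the 250 bases searched as the one with most matches to the NF-Y box or the sterol response element. The boxes in it are thus there by choice. The stretches of Mvd, Lss and Hsd17b7 run from 110 to 1 bases before the start, that of Msmo1 from 160 to 51. Capitals mark NF-Y boxes, read as CCAAT or, on the opposite strand, ATTGG.
Mvd (chr8:122443423-122443532, minus strand): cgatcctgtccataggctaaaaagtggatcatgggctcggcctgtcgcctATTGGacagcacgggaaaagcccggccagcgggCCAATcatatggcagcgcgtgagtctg
Lss (chr10:76531495-76531604, plus strand): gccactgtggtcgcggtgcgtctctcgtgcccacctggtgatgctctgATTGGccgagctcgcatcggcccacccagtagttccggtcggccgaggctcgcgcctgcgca
Hsd17b7 (chr1:169969206-169969315, minus strand): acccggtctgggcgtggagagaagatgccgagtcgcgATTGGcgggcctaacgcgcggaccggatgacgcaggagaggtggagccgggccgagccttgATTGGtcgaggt
Msmo1 (chr8:64733629-64733738, minus strand): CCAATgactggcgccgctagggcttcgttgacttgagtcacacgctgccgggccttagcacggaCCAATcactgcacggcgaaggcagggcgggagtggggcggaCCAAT

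The 2 targets that held the core of the sterol response element are shown because that element is the site known for SREBP itself. Their differences with DKK2 were 0.74 for Acat2 and 0.36 for Hmgcs1. Other targets below 2-fold, such as Mvk and Ebp, which are not shown, held NF-Y boxes and no core. The sequences shown were picked by the size of the difference or by the core. They therefore cannot tell whether a motif goes with that size. Capitals mark the element or its core and, in Hmgcs1, NF-Y boxes on the opposite strand. In Acat2 the first 8 bases are the core and no NF-Y box was found. In Hmgcs1 the full element stands near the end of the stretch. Both stretches were picked by their matches in the same way. They run from 181 to 72 (Acat2) and from 237 to 128 (Hmgcs1) bases before the start.
Acat2 (chr17:12960797-12960906, minus strand): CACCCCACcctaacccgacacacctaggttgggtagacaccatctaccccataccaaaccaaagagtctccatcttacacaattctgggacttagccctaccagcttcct
Hmgcs1 (chr13:119690114-119690223, plus strand): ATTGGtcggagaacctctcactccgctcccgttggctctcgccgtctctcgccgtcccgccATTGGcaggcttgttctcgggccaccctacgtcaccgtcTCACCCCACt

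On the probes used, all 5 regulators lay above 0 with DKK2 against high glucose and 0 were higher by 2-fold. Their range, 0.18 to 0.76, overlapped the 0.28 to 1.98 of the enzymes. Insig1, which retains SCAP in the endoplasmic reticulum and is itself an SREBP target, read 19.4%, 36.6% and 62.2%, stepping up on each array, and differed by 0.76 (SD 0.20) with DKK2. Its relative Insig2 was at 0.34, Scap at 0.44 and Srebf1, which encodes SREBP-1, at 0.18, within its technical SD of 0.20.

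Srebf2, the SREBP-2 gene, could not be given a single value, since its probes disagreed. The brighter probe read 65.7%, 24.8% and 32.8% and differed by 0.41 with DKK2. The other probe differed by 1.38 in the same comparison.

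The LXR and efflux genes did not share the pattern of the SREBP targets. Their median with DKK2 was -0.49, against 1.097 for the targets, and 1 of the 4 lay above 0, where 57.6% of all genes did. Abca1, the exporter that loads cholesterol onto apolipoprotein A-I, read 282%, 301% and 186%, lowest with DKK2, a difference of -0.69 (SD 0.20). Nr1h3, which encodes the receptor LXR-alpha, read 117%, 137% and 91.9% (-0.58) and was at -0.49 on its other probe. Mylip, an LXR-induced ubiquitin ligase gene that acts on lipoprotein receptors, read 165%, 231% and 175% (-0.40), with -0.29 on its other probe. None of these 3 reached 2-fold.

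Abcg1 went the other way. This gene, for an exporter to HDL that is abundant in macrophages, read 5.45%, 11.2% and 54.4%, from signals of 65.5, 265.7 and 1314.8, and was 4.87-fold higher with DKK2 (2.28, SD 0.20), the 60th highest difference of all genes and the largest of the 31. It was the only efflux gene among those higher, and with 4 genes the group's median rests on which side each of them falls.

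**Figure D4:**
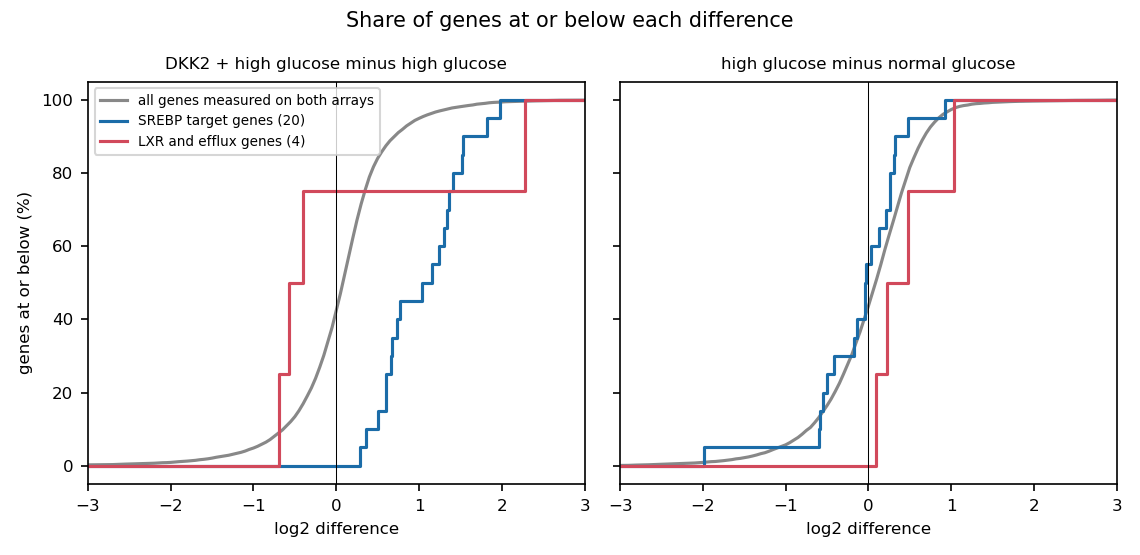
Percentage of genes at or below each log2 difference, for all genes measured on both arrays (grey), the 20 SREBP targets (blue) and the 4 LXR and efflux genes (red). With DKK2 (left) the blue line starts right of 0 while 3 of the 4 efflux genes lie left of it and Abcg1 at 2.28, and between high and normal glucose (right) the blue line runs close to the grey.

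In transport and storage, Stard4, a cytosolic sterol carrier gene and SREBP target, read 31.96%, 29.1% and 69.0% and was higher with DKK2 by 1.24 (SD 0.20), with 1.93 on its other probe. Npc1, which exports cholesterol from lysosomes, was at 0.68 and its partner Npc2 at 0.01, reading 3524%, 2783% and 2808%. Soat1, which esterifies cholesterol for storage, was at 0.45.

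Markers of other cells moved in the same comparison, in which 5.08% of all genes were higher and 4.85% lower. Of 16 measured macrophage markers 11 were higher with DKK2 and 0 lower (median 1.5), Fcgr3 at 2.10 and Cd14 at 2.03 among them, and the sum of their probes' signals was 27.9, 19.8 and 27.9 times the 75th percentile, in the order used above. The Itgam probe alone was at 24.5, 15.7 and 16.1, so this sum says little of the other markers. Of 12 proliferation genes 5 were higher and 0 lower (median 0.96, summed signal 13.3, 16.8 and 37.3). Of 12 adipocyte markers 5 were lower and 0 higher (median -0.71, summed signal 25.3, 30.3 and 16.8), of 11 fibroblast markers 4 lower and 0 higher (median -0.62, summed signal 515, 477 and 340), of 18 endothelial markers 6 lower and 0 higher (median -0.32, summed signal 7.23, 9.04 and 9.61). Smooth muscle and pericyte markers (1 of 10 lower, summed signal 89.1, 55.4 and 34.5) and Schwann cell markers (2 of 6 lower, summed signal 1.92, 2.22 and 1.37) followed. Epithelial markers (1 of 4 higher and 1 lower, summed signal 0.27, 0.30 and 2.03) completed the lists. The other sums can also rest on 1 bright probe. Krt18 alone was at 0.12 of the epithelial sum in high glucose and 1.74 with DKK2. Kdr alone was at 3.04, 3.84 and 4.51 of the endothelial sums. All macrophage, adipocyte, fibroblast, smooth muscle, Schwann cell and proliferation genes with a probe kept here were well above background on all 3 arrays. Their part in the sterol gene differences was not tested, and in such bulk RNA more or fewer cells of a type and more or less RNA per cell cannot be told apart.

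Neighbouring pathways were read from further lists, beside 5.08% of all genes higher and 4.85% lower with DKK2 against high glucose. In fatty acid synthesis, which SREBP-1 drives, 17 of 20 genes lay above 0 with DKK2 (median 0.58), but 1 was higher and 1 lower. The higher gene was Scd2, a stearoyl-CoA desaturase gene, at 1.19, while Acly, which makes cytosolic acetyl-CoA, was at 0.87, Scd1 at 0.83 and Fasn, the fatty acid synthase gene, at 0.65. The lower gene, Thrsp, was at -1.77 from signals of 15.5, 52.3 and 15.6, close to background, and at -0.62 with normexp, which ends that call. Among 16 genes, those of branches that draw on farnesyl diphosphate for other products and Idi2, a relative of Idi1, 0 were higher and 0 lower (median 0.01). The same held for 11 genes of SREBP processing and turnover (median 0.10).

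Among 24 measured genes of other sterol handling 2 were higher and 2 lower (median 0.31). Nceh1, a cholesteryl ester hydrolase gene, was at 1.18 and Gramd1b, a sterol transporter gene of membrane contact sites, at 1.16. The lower genes were Abcg4, an efflux transporter gene related to Abcg1, at -1.48, and Pltp, the phospholipid transfer protein gene, at -1.23. Scarb1, the HDL receptor gene, was at 0.78 and Lpcat3, an LXR target in phospholipid remodelling, at 0.64.

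Between high and normal glucose the synthesis genes lay around 0. Of the 20 SREBP targets 0 were higher than in normal glucose and 1 was lower, where 2.67% of 16762 genes were higher and 5.73% lower, and 9 of the 20 lay above 0, where 56.4% of all genes did. Their median was -0.03, that of the 4 LXR and efflux genes 0.35, and that of all genes 0.09. The lower gene was Dhcr7, which read 60.2% in normal glucose and 15.2% in high glucose, a difference of -1.99 (SD 0.20), and 23.1% with DKK2. It has 1 probe, so no other reading of it could be set beside this.

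Over all 31 genes 2 were higher and 2 lower in high glucose. The second lower gene was Srebf2 at -1.41, with -0.81 on its other probe. The higher ones were Soat1, which read 3.92% and 11.8% (1.59), and Abcg1 (1.03). Both were dim in normal glucose, with signals of 47.1 and 65.5, and with normexp background correction Soat1 was at 0.12 and Abcg1 at -0.26. The fixed offset of 50 in normexp raises a dim probe by a larger factor than a bright one. With it the median of all genes in this pair went from 0.09 to -0.26, so these values do not decide the 2 calls. Insig1 was at 0.92, and at 0.51 with normexp, and Insig2 at 0.76, but the other Insig2 probe was at -0.18.

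**Figure D5:**
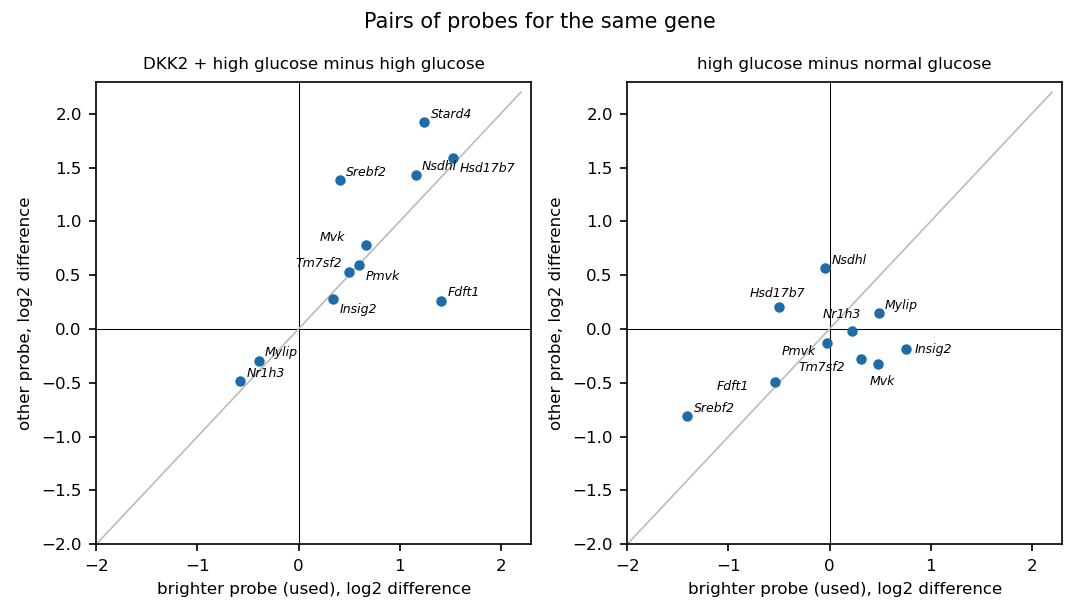
Log2 differences of the brighter probe (the value used) against the other probe for genes with both probes well above background, with the diagonal in grey. With DKK2 against high glucose (left) all 11 pairs lie on the same side of 0 and most lie near the diagonal, and between high and normal glucose (right) 4 of 10 pairs lie on the same side of 0.

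The genes with 2 probes show how far a reading depends on the probe. Both probes read the same RNA pool on the same array, so their match is no replicate of a condition. For DKK2 against high glucose both probes lay on the same side of 0 in 11 of 11 genes, with a median gap of 0.10, although for Fdft1, Srebf2 and Stard4 the gap was 1.15, 0.98 and 0.68. For high against normal glucose they lay on the same side in 4 of 10, with a median gap of 0.59. Mvk was at 0.48 and -0.33, Tm7sf2 at 0.31 and -0.28, and Hsd17b7 at -0.50 and 0.20. These gaps exceed the scanner's SD of 0.20, and their source was not tested.

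Set against normal glucose, the cells with DKK2 in high glucose had 11 of the 20 SREBP targets higher and 1 lower, with 19 of 20 above 0 and a median of 1.07. Of 16672 genes 10.5% were higher and 10.4% lower. This comparison shares its arrays with the other 2 and is their sum, so it adds no separate reading. It shows that the targets' level with DKK2 was above that of normal glucose too. Msmo1 was at 1.78, Insig1 at 1.69, Sc5d at 1.65, Idi1 at 1.43, Mvd at 1.40 and Lss at 1.41, the last at 0.94 with normexp. Hsd17b7, at 1.04, was at 0.91 with normexp, and Fdps, at 1.19, at 0.97 with quantile normalization. Mvk, at 1.14, was at 0.45 on its dimmer probe, at 0.80 with the mean over probes and at 0.97 with quantile normalization. Stard4, at 1.11, was at 0.85 with normexp, and centring on the median of all genes put Stard4 at 0.993, Nsdhl at 0.996 and Hsd17b7 at 0.92. Dhcr7 was at -1.39, the exception. Fdft1, at 0.87, was at -0.23 on its other probe, and with the dimmer probes 18 of the 20 targets lay above 0.

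Among the LXR and efflux genes the median against normal glucose was -0.13, with Abca1 at -0.60, Nr1h3 at -0.35 and Mylip at 0.09, while Abcg1 was at 3.32, and at 1.79 with normexp. Soat1 was at 2.04, but at 0.50 with normexp, where the median of all genes went from 0.12 to -0.25. Over all 31 genes 14 were higher and 2 lower, the second lower gene being Srebf2 at -1.0001, on the 2-fold line itself and on the other side of 0 (0.58) when read on its other probe. Both probes lay on the same side of 0 in 7 of 10 genes, with a median gap of 0.72. 
In the further lists, high against normal glucose gave 0 higher and 1 lower of 20 genes in fatty acid synthesis. For the farnesyl diphosphate branches with Idi2 the counts were 0 and 1 of 16. They were 0 and 0 of 11 in SREBP processing and 0 and 3 of 23 in other sterol handling. Of all genes in this pair 2.67% were higher and 5.73% lower. The lower genes were Hsd17b12, a fatty acid elongation gene, at -1.14, Fntb, the farnesyltransferase beta subunit gene, at -1.82, Pltp at -1.91, Abca2, a lipid transporter gene, at -1.12, and Osbp, the oxysterol-binding protein gene, at -1.09. With DKK2 against normal glucose the counts were 3 and 1, 0 and 1, 1 and 0, and 3 and 3 in the same order. Of all genes in that pair 10.5% were higher and 10.4% lower. Scd2 was at 1.58, Scd1 at 1.37, Usp20, a deubiquitinase gene, at 1.31, Abca7, another lipid transporter gene, at 1.37 and Nceh1 at 1.32. Thrsp was at -1.001, but from signals close to background, 15.5 in normal glucose and 15.6 with DKK2 before scaling. Fntb was at -1.83, Abcg4 at -1.33, Osbp at -1.10 and Pltp at -3.13, the lowest of these lists. With normexp Fasn, at 1.01, was at 0.51, and Gramd1b, which was at 1.25, at 0.98.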

How the data were processed

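Scanner output came from Feature Extraction 11.5.1.1, per the file headers. The deposited files give each spot's background-corrected intensity, not on a log scale. The deposited value table also holds intensity: for 99.59% of 39429 probes it differs from the mean of the spots by at most 0.001 of its value. Control spots (1377 per array) and outlier spots (110, 115 and 136) were left out, and no spot was saturated. Signals were divided by each array's 75th percentile over probes, converted to log2 and averaged over a probe's spots, and a probe passed as well above background if 50% or more of its spots did. Probes were named through accessions in a RefSeq table of GRCm38.p6, while the headers name mm9, so it served for names and promoters only: 27502 probes matched 1 symbol and 11927 none. A gene's value is that of its brightest probe, counted where well above background on both arrays. The number of arrays limits the precision. The mean signal was not used here, so normexp (offset 50) ran on the median signal in limma 3.58.1 under R 4.3.3. Python 3.11.15, numpy 2.4.6 and pandas 2.3.3 did the rest. The counting was tested on simulated copies of the high glucose array with planted changes, which checks the arithmetic and not how reliable the 2-fold calls are here. The genes, lists, 2-fold rule and motifs were chosen with earlier results of these data known. All 31 genes are named, and in the further pathway lists the genes at least 2-fold apart also with normexp, while Acly, Fasn, Scarb1, Lpcat3 and the 2-fold changes lost with normexp were picked after their values were seen. The alternatives are in the closing section.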

Additional observations from a re-analysis of the deposited data

How the results depend on the processing

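For DKK2 against high glucose, the 12 higher genes of the 31, the 11 higher SREBP targets and both medians stayed within 1.5 times or the technical SD under normexp, quantile normalization, median scaling, no filter, a signal of at least 100, the deposited table, the mean over probes (but for the difference below) and 2 alternatives chosen after seeing the data (the dimmer probe, and centring on the median of all genes). The size rule moved the counts: at 1.5-fold 19 were higher and 1 lower (17 SREBP targets higher), and at 3-fold 3 were higher (2 targets). Of all genes 13.1% were higher and 11.3% lower at 1.5-fold, and 1.59% and 1.8% at 3-fold. The targets' median minus that of the efflux genes, 1.58, was 1.38 with the mean over probes and 1.30 with the dimmer probe. For high against normal glucose, the 2 higher genes became 0 with normexp or a signal of at least 100 (2 genes then drop out), 1 when centred, and 4 at 1.5-fold and 1 at 3-fold. The 2 lower became 1 at 3-fold and with the dimmer probe. At 1.5-fold 1 target was higher and 2 lower, where 14% of all genes were higher and 13.6% lower. At 3-fold 0.626% of all genes were higher and 1.93% lower. The efflux median was 0.12 with the dimmer probe, and Abcg1 turned to -0.26 with normexp. For DKK2 against normal glucose, the 2 lower genes became 1 with normexp, quantile normalization, median scaling, the deposited table, the mean over probes and the dimmer probe, which turned Srebf2 to 0.58, and 0 at 3-fold (0 targets), where 5 genes and 3 targets were higher. Of all genes in that pair 3.44% were higher and 4.49% lower at 3-fold. With a signal of at least 100 the efflux median was -0.35 and the targets' median minus it 1.43. Except where an alternative by construction keeps fewer genes or changes the size rule, the cause was not tested. With normexp the all-gene median went from 0.09 to -0.26 for high against normal glucose, with 1.03% of genes higher and 23.5% lower, and from 0.12 to -0.25 for DKK2 against normal glucose, with 5.63% higher and 24.0% lower. No paired analysis was possible because each group has 1 array. Signal near background limits Soat1, Abcg1 and the second probes of Stard4, Fdft1 and Mylip.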
